A study of Mus musculus with 10 samples.

Results

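The stroma of bone marrow is a network of mesenchymal cells around the sinusoids that feeds and holds blood-forming cells. Its defining product is the chemokine CXCL12, which binds CXCR4 on stem cells, B cell precursors and neutrophils and keeps them in the marrow. The same cells carry the leptin receptor, secrete or display the cytokines KIT ligand, interleukin 7 and angiopoietin 1, and depend on the transcription factors FOXC1 and EBF3 to keep their identity. The 9 genes examined were Cxcl12, Kitl, Lepr, Il7, Angpt1, Foxc1, Ebf3, Esm1 and Nes. They were taken by gene symbol, and all 9 were found among the 35705 genes of the table. All 9 also passed the filter for testing, a mean over libraries no lower than 1 TPM, which 13841 genes met. TPM is the abundance of a transcript after allowing for its length, as a part of a fixed library total of 1000000.

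The libraries came from medial knee cartilage caps of 10 mice, 5 wild-type controls and 5 Mir324-null mice, with total RNA from 1 mouse per library. Mir324 encodes a microRNA hairpin with a 5p and a 3p mature strand, and its loss in the null mice was not restricted to a cell type in the labels. The level of the microRNA itself was not analysed here, so the genotypes are those of the labels. Age, sex, strain background, litter and batch of the mice were not given in the sources used here. The comparison asked whether the niche factors differ in tissue that lacks this microRNA, in a study of bone-forming and bone-resorbing cells.

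The tissue was labelled articular cartilage and the cell type chondrocyte, but the libraries held much RNA of blood cells. Haemoglobin genes made up 11.2% to 26.1% of each library's TPM. Their mean share was 15.5% (SD 3.93) in wild-type and 20.6% (SD 4.21) in null mice, a difference that was not tested. As TPM is part of a fixed library total, a larger share of these genes leaves less for all others. Results after rescaling without haemoglobin genes are therefore given below for part of the comparisons. Of 9 chondrocyte markers, 7 passed the TPM filter, with Col9a1 and Matn3 below it, and the 9 summed to between 1608 and 6054 TPM. Wild-type replicate 1 stood apart from the other 9 libraries. It held the highest chondrocyte sum and lay at -54.8 on the first principal component, against -12.1 to 30.1 for the others, so the change of each niche factor and partner is also given without it. In such bulk samples, fewer cells of a type and less RNA per cell cannot be told apart.

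MicroRNAs act through a seed, bases 2 to 8 of the mature strand, which pairs with sites in the 3′ UTR of a messenger RNA. The mature strands that the null mice lack are shown first, since they define which niche transcripts hold a site. They are RefSeq sequences on chromosome 11 of GRCm38.p6, plus strand, at 70012060 to 70012082 and 70012095 to 70012114, with the seed in capitals.
miR-324-5p: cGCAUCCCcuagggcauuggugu
miR-324-3p: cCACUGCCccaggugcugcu

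Among protein-coding transcripts with a mean of at least 1 TPM, sites were found in Cxcl12, Kitl and Foxc1. They are printed here with the 7 bases complementary to the seed in capitals, read on the strand of the transcript in GENCODE M21 (GRCm38). Each is given with 8 bases before and 8 after it.
Cxcl12-203, 5p site: gagagccaGGGATGCattctctc
Cxcl12-201, first 5p site: cttagaaaGGGATGCcccaccct
Cxcl12-201, next 5p site: gaggcctgGGGATGCccaggaac
Cxcl12-202, 3p site: gatgcaagGGCAGTGgtggggag
Kitl-202, 3p site: cagaaattGGCAGTGattccaca
Foxc1-201, 5p site: gtagggtcGGGATGCccaaaaga

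The sites in Cxcl12-203 (chromosome 6, 117180962 to 117180968) and Kitl-202 (chromosome 10, 100097260 to 100097266) are followed by an adenosine, which makes them 8mers. Those in Cxcl12-202 (chromosome 6, 117173649 to 117173655) and Foxc1 (chromosome 13, 31811469 to 31811475) are 7mers. Cxcl12-201 held 3 sites for the 5p strand, the 8mer it shares with Cxcl12-203 and the 7mers at 117177688 to 117177694 and 117178205 to 117178211. Il7 held 1 only in Il7-205, a transcript of at most 0.222 TPM. In the longest 3′ UTR of each gene, GGGATGC was found in 3 of the 9 genes (Cxcl12, Il7 and Foxc1), against 8.50% of 12601 protein-coding genes. GGCAGTG was found in 1 of the 9 (Kitl), against 15.4%. The 3′ UTRs with a site were 5188 (Cxcl12), 3846 (Il7), 3607 (Foxc1) and 4435 bases long (Kitl). The shares over all genes were not matched for length, so no excess of sites can be read from them. Lepr, Angpt1, Ebf3, Esm1 and Nes held neither in any annotated protein-coding transcript. A match of letters describes the sequence and is not evidence of binding.

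None of the 9 niche factors differed between genotypes beyond the spread between mice. In limma with Benjamini-Hochberg adjustment over all genes tested, 0 of 9 had an adjusted p under 0.05, the same share as among all genes (0% of 13841). At an unadjusted p under 0.05 there were also 0 of 9, against 11.6% of all genes (7.3% lower and 4.28% higher in null mice). After median ratio scaling or quantile normalization there were 2 of 9, Foxc1 and Nes, against 1763 and 1813 of 13841 genes. This balance over all genes depended on the scaling, with 888 lower and 875 higher after median ratio scaling and 577 lower and 1216 higher after rescaling without haemoglobin genes, instead of 1011 and 592. The values of the genotypes overlapped for all 9, while they did not overlap for 1.94% of all genes (1.06% lower and 0.881% higher in null mice). The exact permutation p of the 9 genes, two-sided, lay between 0.0635 and 0.746. Estimates were below 0 for 7 genes, where 60.0% of all genes had one below 0, and above 0 for Angpt1 and Esm1. The 7 stayed below 0 under these 2 scalings and quantile normalization, under which 49.3%, 42.5% and 49.2% of all genes were below 0. The median of the 9 was -0.22 on the log2(TPM + 1) scale against -0.045 over all genes tested. Without wild-type replicate 1, 8 of 9 estimates were below 0, with a median of -0.27.

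**Figure D1:**
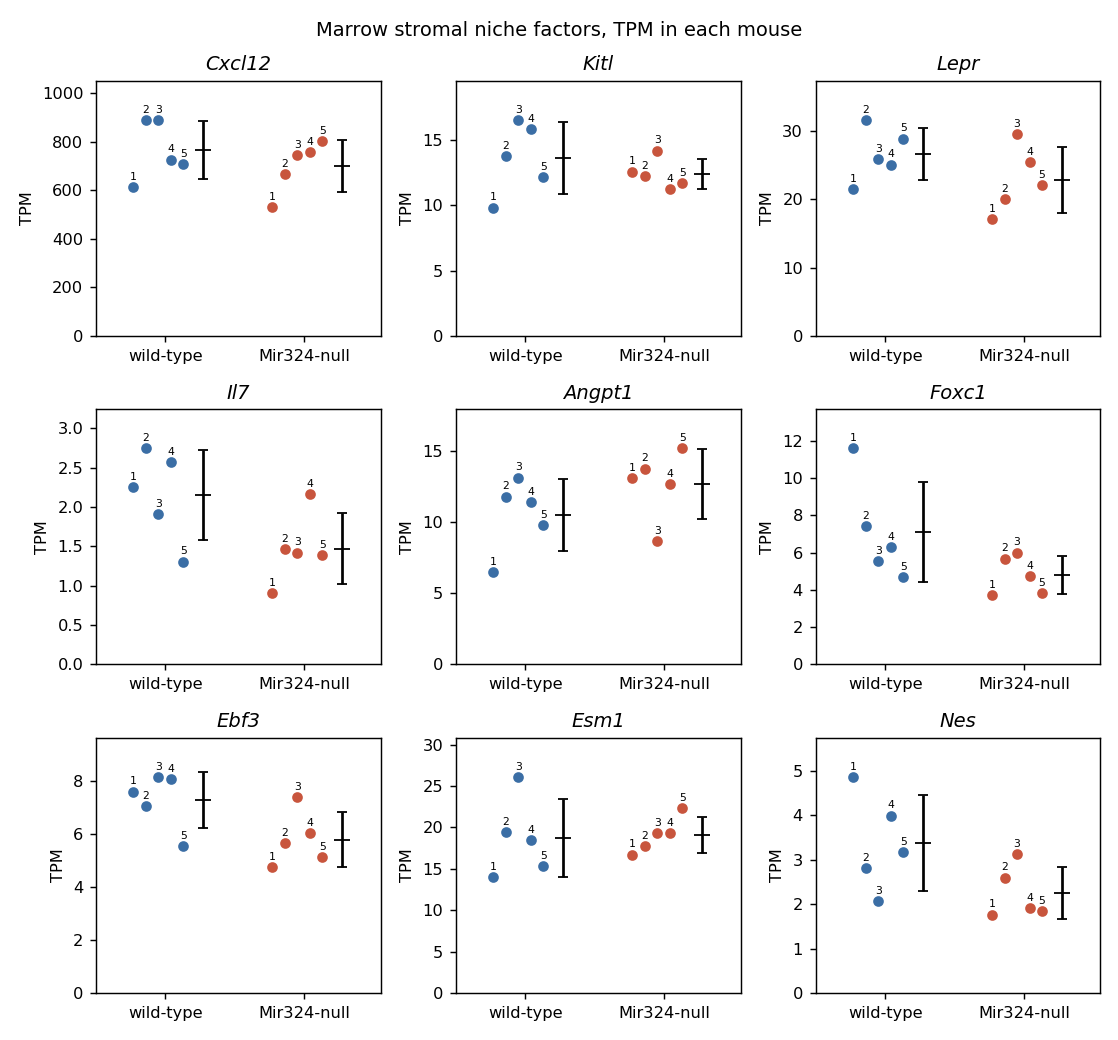
TPM of each niche factor (y axis, from 0) in the 5 wild-type (blue) and 5 Mir324-null mice (red), each point 1 mouse with its replicate number, with the mean and SD as black bars. The genotypes overlap in all 9 panels, and wild-type replicate 1 is the highest mouse for Foxc1 and Nes and the lowest for Angpt1, Esm1 and Kitl.

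Cxcl12 (ENSMUSG00000061353, chromosome 6, 117168535 to 117181367, plus strand) was by far the most abundant of the group. Its level was 614, 888, 889, 725 and 708 TPM in wild-type replicates 1 to 5 and 530.2, 667, 745, 757 and 803 TPM in the null replicates. The lowest value was that of null replicate 1, and the other 4 null mice lay within the wild-type range. The means were 765 ± 121 and 700.5 ± 107 TPM (SD, n = 5 each), above 98.7% of the genes tested. The change was -0.13 (95% interval -0.42 to 0.17, adjusted p in limma 0.799, exact permutation p = 0.421). It was -0.030 without null replicate 1 and -0.20 without wild-type replicate 1.

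CXCL12 is made in several splice forms that share a first part and differ in the last codons, which in the gamma form add a basic tail that binds heparan sulfate. The ends of the coding sequence of the 3 annotated protein-coding transcripts are printed to tell them apart, from GENCODE M21, with shared bases in lower case and the bases that differ, stop codon included, in capitals.
Cxcl12-202: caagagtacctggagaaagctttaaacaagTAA
Cxcl12-203: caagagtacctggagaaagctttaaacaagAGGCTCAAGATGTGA
Cxcl12-201: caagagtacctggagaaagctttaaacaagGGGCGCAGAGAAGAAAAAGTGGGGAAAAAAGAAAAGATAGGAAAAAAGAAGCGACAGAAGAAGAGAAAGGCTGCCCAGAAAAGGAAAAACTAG

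With 89, 93 and 119 codons, these match the lengths of the alpha, beta and gamma forms. The first 267 bases of the coding sequence are identical in all 3. The 89-codon transcript Cxcl12-202, which carries the 3p site, held 48.3% ± 1.67 of Cxcl12 TPM in wild-type and 47.9% ± 1.57 in null mice (SD, n = 5, exact permutation p = 0.683, adjusted over 10 transcripts 0.905). The 93-codon transcript Cxcl12-203, which carries the 5p 8mer, held 47.0% ± 1.92 and 47.4% ± 0.877 (SD, n = 5, exact permutation p = 0.635, adjusted 0.905). Neither difference exceeded the spread between mice, and both turned in sign without wild-type replicate 4, as did that of Cxcl12-202 without null replicate 1. The 119-codon transcript, which holds 3 sites for the 5p strand, made up between 2.25% and 3.58% of the gene. A share within a gene does not depend on how a library is scaled, but how kallisto divides reads among transcripts with shared exons is an estimate.

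**Figure D2:**
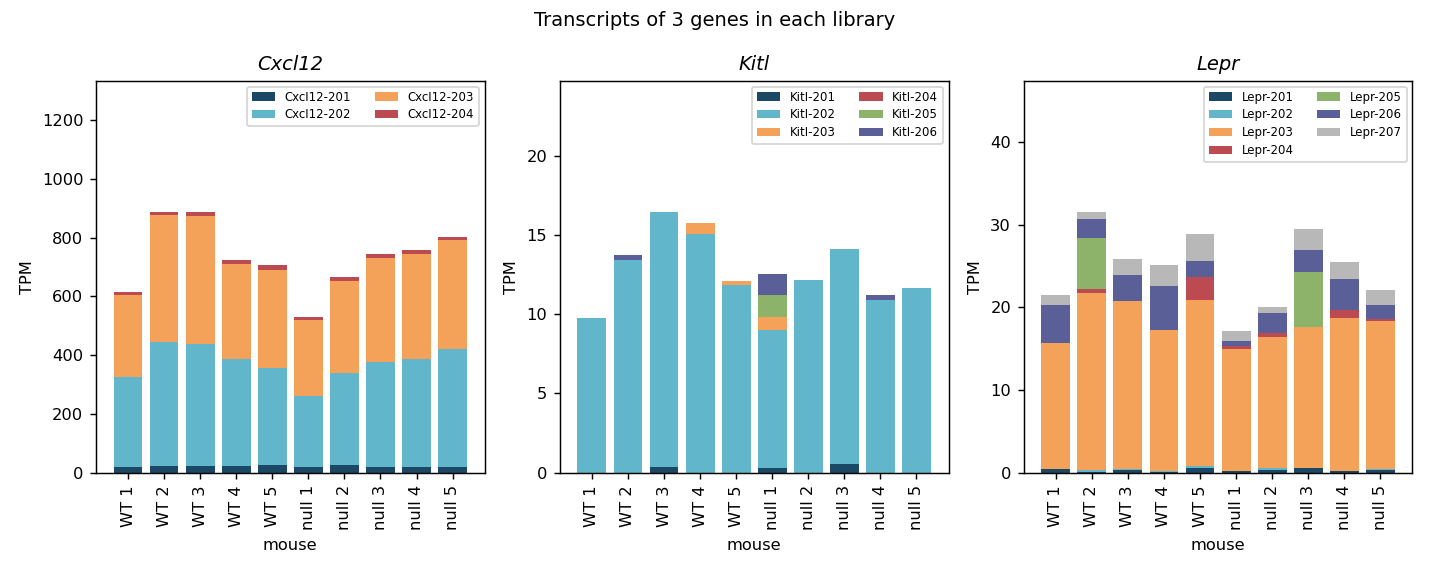
Stacked bars of TPM per transcript (y axis, from 0) for Cxcl12, Kitl and Lepr in each of the 10 mice (x axis, WT wild-type, null Mir324-null). Cxcl12-202 and Cxcl12-203 hold near-equal parts in every mouse, Kitl-202 makes up most of Kitl in each, and Lepr-205 is present in 1 wild-type and 1 null mouse only.

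Kitl (ENSMUSG00000019966, chromosome 10, 100015630 to 100100416, plus strand) encodes KIT ligand, or stem cell factor, the cytokine that maintains stem cells, erythroid precursors and mast cells. It stood at 9.80, 13.8, 16.5, 15.8 and 12.1 TPM in the wild-type and at 12.5, 12.2, 14.2, 11.2 and 11.7 TPM in the null mice. All null mice lay inside the wild-type range, and the null group was the tighter one, with SDs of 1.13 against 2.74 TPM. The change was -0.11 (95% interval -0.41 to 0.19, adjusted p in limma 0.841, exact permutation p = 0.452). Counting only protein-coding transcripts gave -0.18 and only the most abundant transcript -0.19. Leaving out wild-type replicate 1 gave -0.21, and leaving out wild-type replicate 3 gave -0.040.

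Almost all Kitl signal was assigned to Kitl-202, an annotated form with exon 6. This exon codes for the main site at which the membrane protein is cut to release a soluble cytokine. Kitl-202, of 273 codons, includes the exon of 84 bases below (chromosome 10, 100080857 to 100080940 in GRCm38), while Kitl-201, of 245 codons and kept mainly at the cell surface, skips it.
Kitl exon 6: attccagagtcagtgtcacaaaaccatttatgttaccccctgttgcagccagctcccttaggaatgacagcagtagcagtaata

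Kitl-202 held between 95.3% and 100% of Kitl in wild-type mice. It held between 69.6% and 100% in null mice (exact permutation p = 0.738), and without null replicate 1 its difference was 0.688 percentage points against -5.07 with it. In null replicate 1, the 2 non-coding transcripts Kitl-205 and Kitl-206 had 1.36 and 1.34 TPM. Kitl-201 was listed at 0 in 7 of the 10 mice and reached at most 0.516 TPM.

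Lepr (ENSMUSG00000057722, chromosome 4, 101717404 to 101815352, plus strand), the leptin receptor, is the gene most used to mark and trace adult marrow stroma. It measured 21.5, 31.6, 25.8, 25.1 and 28.8 TPM in the wild-type group, and 17.1, 20.0, 29.5, 25.5 and 22.1 TPM were found in the null group. Null replicates 1 and 2 were below every wild-type mouse, and the other 3 null mice were within the wild-type range. The change was -0.22 (95% interval -0.55 to 0.10, adjusted p in limma 0.621, exact permutation p = 0.214). It was -0.29 without wild-type replicate 1, -0.13 without null replicate 1, -0.13 with protein-coding transcripts only and -0.15 with the most abundant transcript only.

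The leptin receptor has a long form, which signals through STAT3, and short forms with a brief cytoplasmic tail. The coding sequences part after 2667 shared bases, and the first bases past that point are printed in capitals to show the ends of the short forms.
Lepr-203: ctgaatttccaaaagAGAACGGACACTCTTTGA
Lepr-202: ctgaatttccaaaagGTCACTGTTTAA
Lepr-201: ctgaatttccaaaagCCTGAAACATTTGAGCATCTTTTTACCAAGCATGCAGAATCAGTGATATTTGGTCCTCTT

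Lepr-203, a short form of 894 codons, was the main transcript, at 14.7 to 21.4 TPM. It held 71.0% ± 4.36 of Lepr TPM in wild-type and 75.2% ± 10.8 in null mice (SD, n = 5, exact permutation p = 0.421, adjusted 0.905). The long form Lepr-201, of 1162 codons, was above 0 in all 10 mice but reached only 0.0526 to 0.569 TPM, or 0.210% to 1.97% of the gene. Lepr-205, a fragment of 208 bases, had 6.18 TPM in wild-type replicate 2 and 6.57 TPM in null replicate 3 and was listed at 0 elsewhere. These 2 mice had the highest Lepr sum of their genotype.

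Il7 (ENSMUSG00000040329, chromosome 3, 7569994 to 7613760, minus strand), the cytokine that B cell precursors need, was the lowest of the 9 genes. It was 2.25, 2.74, 1.91, 2.57 and 1.31 TPM in controls and 0.905, 1.47, 1.42, 2.16 and 1.38 TPM in null mice. Wild-type replicates 1, 2 and 4 were above every null mouse, while wild-type replicates 3 and 5 were inside the null range. The change was -0.35 (95% interval -0.75 to 0.047, adjusted p in limma 0.491, exact permutation p = 0.0952). At such levels the pseudocount weighs heavily, and the estimate was -0.53 with a pseudocount of 0.1 and -0.14 with 5. It was -0.20 with the most abundant transcript only and -0.34 without wild-type replicate 1.

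Angpt1 (ENSMUSG00000022309, chromosome 15, 42424723 to 42676977, minus strand) encodes angiopoietin 1, the ligand of the endothelial receptor TEK, and is expressed by megakaryocytes and stem cells as well as stroma. Its values were 6.52, 11.8, 13.2, 11.4 and 9.81 TPM in the wild-type group and 13.1, 13.8, 8.67, 12.7 and 15.2 TPM in null mice. Of the null mice, 4 were above the wild-type mean, and null replicate 3 was below it. The change was 0.26 (95% interval -0.15 to 0.67, adjusted p in limma 0.656, exact permutation p = 0.262). Wild-type replicate 1 had the lowest value, and without it the change was 0.11.

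The transcription factors of the stroma were lower on average in null mice, without passing the test. Foxc1 (ENSMUSG00000050295, chromosome 13, 31806633 to 31812476, plus strand), a forkhead factor needed for CXCL12-abundant cells, was at 11.6, 7.41, 5.54, 6.32 and 4.69 TPM in wild-type mice. In null mice it was at 3.72, 5.68, 6.01, 4.75 and 3.85 TPM. All 5 null mice were below the wild-type mean, which was raised by wild-type replicate 1. The change was -0.45 (95% interval -0.91 to 0.014, adjusted p in limma 0.442, exact permutation p = 0.0794). It was -0.27 without wild-type replicate 1 and -0.29 with a pseudocount of 5.

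Ebf3 (ENSMUSG00000010476, chromosome 7, 137193673 to 137314445, minus strand), the EBF family factor that keeps marrow cavities free of bone, was at 7.60, 7.05, 8.15, 8.06 and 5.52 TPM in wild-type mice. In null mice it was at 4.74, 5.64, 7.39, 6.03 and 5.11 TPM. The genotypes overlapped, with wild-type replicates 2 and 5 inside the null range and null replicates 2, 3 and 4 inside the wild-type range. The change was -0.29 (95% interval -0.60 to 0.018, adjusted p in limma 0.460, exact permutation p = 0.0635). It lay between -0.37 and -0.23 when single mice were left out (-0.27 without wild-type replicate 1), and was -0.19 with a pseudocount of 5.

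Esm1 and Nes are expressed by cells of the vessel wall as well as by stroma. Esm1 (ENSMUSG00000042379, chromosome 13, 113209659 to 113218098, plus strand), which encodes a secreted proteoglycan, was at 14.0, 19.5, 26.1, 18.5 and 15.3 TPM in the wild-type and at 16.7, 17.7, 19.3, 19.3 and 22.4 TPM in null mice. All null mice lay inside the wild-type range. The change was 0.055 (95% interval -0.28 to 0.39, adjusted p in limma 0.945, exact permutation p = 0.746), and its sign turned when wild-type replicate 1 (-0.034), wild-type replicate 5 (-0.0049) or null replicate 5 (-0.00090) was left out. Esm1 lies within Gzmk, a gene of the opposite strand with a mean of 0.749 TPM, and antisense genes also overlap Il7 (Gm16685), Angpt1 (Gm17473) and Ebf3 (Gm45278 and Gm10578). These are overlaps of whole gene spans, and overlap of exons was not examined. Whether reads were assigned by strand is not given in the sources used here. Whether the values of these 4 genes include reads of the opposite strand was not tested.

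Nes (ENSMUSG00000004891, chromosome 3, 87971078 to 87980451, plus strand) encodes nestin, an intermediate filament protein of perivascular stem-like cells, pericytes, endothelium and nerve-associated cells. It was at 4.87, 2.81, 2.06, 4.00 and 3.17 TPM in the wild-type and at 1.77, 2.60, 3.13, 1.92 and 1.84 TPM in null mice. Wild-type replicates 1, 4 and 5 were above every null mouse and wild-type replicates 2 and 3 were within the null range. The change was -0.41 (95% interval -0.84 to 0.013, adjusted p in limma 0.442, exact permutation p = 0.0635). It was -0.30 without wild-type replicate 1, -0.28 with the most abundant transcript only and -0.20 with a pseudocount of 5. Its transcripts Nes-201 and Nes-203, of 1864 and 1820 codons, had widely varying shares, with Nes-201 between 0% and 100% of the gene.

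**Figure D3:**
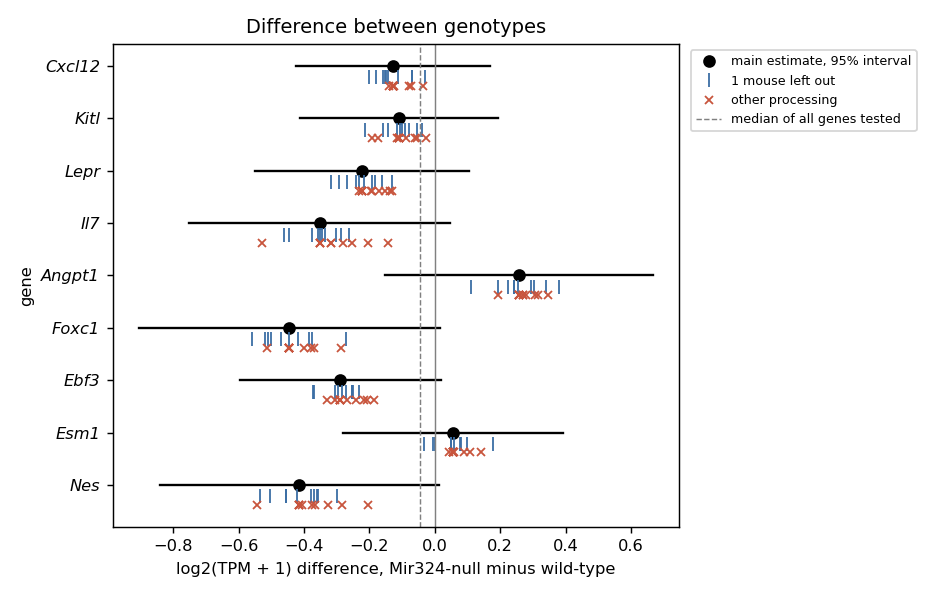
Difference between genotypes on the log2(TPM + 1) scale (x axis) for each gene (y axis), as the limma estimate with its 95% interval (black), the estimates with 1 mouse left out (blue ticks) and those under other processing (red crosses). Every black interval includes 0, and only Esm1 has estimates on both sides of 0.

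By level, the order of the means over the 10 mice was Cxcl12 (733 TPM), Lepr (24.7), Esm1 (18.9), Kitl (13.0), Angpt1 (11.6), Ebf3 (6.53), Foxc1 (5.96), Nes (2.82) and Il7 (1.81). TPM allows for transcript length, so these levels can be set side by side, as sums over all transcripts of a gene. That of Lepr includes the non-coding Lepr-206 (mean 2.83 TPM) and the fragment Lepr-205 (1.28). Its main transcript Lepr-203 alone averaged 17.8 TPM, below the 18.9 of Esm1. Cxcl12 in its lowest mouse was above every other niche factor in its highest mouse. From Lepr downwards, the ranges over mice of each gene and the next in this order overlapped. Within mice, however, Esm1 was above Kitl and Foxc1 above Nes in 10 of 10, Angpt1 above Ebf3 and Nes above Il7 in 9, and Lepr above Esm1 in 8. Ebf3 was above Foxc1 in 7 and Kitl above Angpt1 in 6 of the 10 mice, the least separated neighbours. The highest mouse was 1.68 times the lowest for Cxcl12 and for Kitl, 1.72 times for Ebf3 and 1.85 to 1.86 times for Lepr and Esm1. It was 2.33 times the lowest for Angpt1, 2.76 times for Nes, 3.03 times for Il7 and 3.12 times for Foxc1, which became 1.99 times without wild-type replicate 1. The SD of log2(TPM + 1) within genotypes was 0.205 for Ebf3, and 37.0% of the genes tested had a smaller one. For Foxc1 it was 0.361, with 78.1% of genes below it.

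Over all 10 mice, the niche factors did not vary as 1 block. All 36 pairs were correlated on log2(TPM + 1), over 10 mice whose values share the fixed total of a library. Foxc1 and Nes were the closest positive pair by Pearson's r, though not by rank, with r of 0.82 (permutation p = 0.0025, adjusted over the 36 pairs 0.0454) and Spearman's rho of 0.77 (permutation p = 0.0122, adjusted 0.110). Their r was 0.58 without the 2 mice farthest from the median of Foxc1 and 0.68 without wild-type replicate 1. It was 0.66 within the wild-type and 0.93 within the null mice. Foxc1 also went with Ebf3 (r = 0.71, permutation p = 0.0144, adjusted 0.0896; rho = 0.73, permutation p = 0.0195, adjusted 0.140) and Ebf3 with Il7 (r = 0.74, permutation p = 0.0174, adjusted 0.0896; rho = 0.71, permutation p = 0.0259, adjusted 0.156). These 2 pairs had r of 0.71 and 0.66 without the 2 farthest mice. Foxc1 and Ebf3 had r of 0.40 within the wild-type and 0.85 within the null mice, and Ebf3 and Il7 of 0.69 and 0.49. By rank, Foxc1 was closest to Il7, with rho of 0.83 (permutation p = 0.0044, adjusted 0.0790). The r of that pair was 0.67 (permutation p = 0.0302, adjusted 0.136), and 0.52 without the 2 mice farthest from the median of Il7.

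Cxcl12 was closest to Lepr and Esm1 instead, though these were only weakly related to each other (r = 0.23). For Cxcl12 and Esm1, r was 0.74 (permutation p = 0.0155, adjusted 0.0896) and rho 0.93 (permutation p = 0.00028, adjusted 0.0101), with r of 0.77 without the 2 farthest mice and of 0.87 and 0.88 within each genotype. For Cxcl12 and Lepr, r was 0.75 (permutation p = 0.0129, adjusted 0.0896) and rho 0.67 (permutation p = 0.0388, adjusted 0.199), with r of 0.61 without the 2 farthest mice. With Foxc1, Cxcl12 had an r of 0.028 (permutation p = 0.938) over all 10 mice. Without wild-type replicate 1 it was 0.53, and Foxc1 went from 0.23 to 0.66 with Lepr and from -0.16 to 0.58 with Kitl. The r of Foxc1 with these genes thus depended on that mouse, and on others as well. Without the 2 mice farthest from the median of Cxcl12, Lepr or Kitl, its r with that gene was -0.43, -0.12 and -0.32. Between Foxc1 and Cxcl12, r was -0.48 within the wild-type and 0.31 within the null mice. Without wild-type replicate 1, r was 0.12 for Cxcl12 with Nes, -0.68 for Angpt1 with Nes and -0.40 for Angpt1 with Foxc1. Angpt1 ran against Nes, with r of -0.83 (permutation p = 0.0023, adjusted 0.0454) and rho of -0.81 (permutation p = 0.0066, adjusted 0.0798), and r was -0.70 without the 2 farthest mice. Angpt1 against Foxc1 had r of -0.75 (permutation p = 0.0152, adjusted 0.0896) and rho of -0.58 (permutation p = 0.0887, adjusted 0.355), which fell to an r of -0.35 without the 2 farthest mice and so rested on them.

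**Figure D4:**
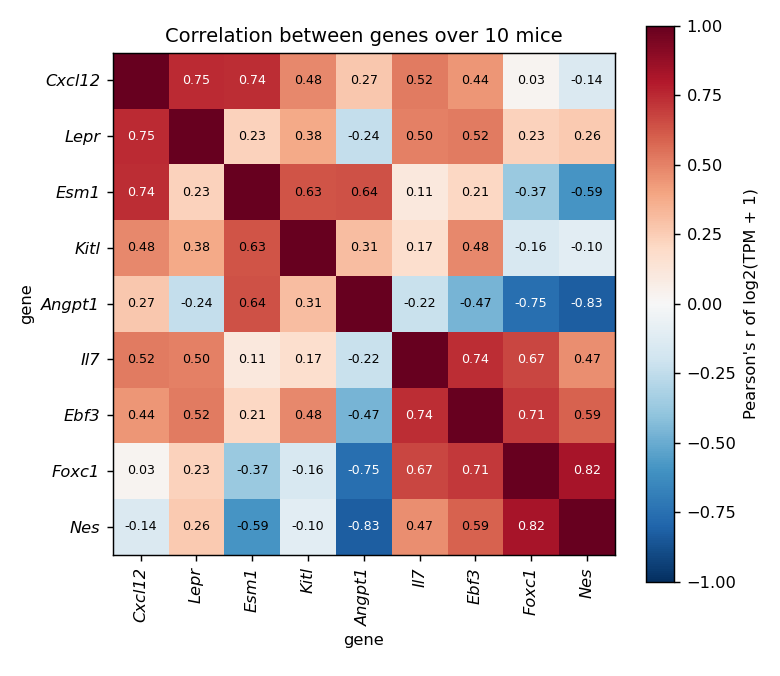
Pearson's r of log2(TPM + 1) over 10 mice for each pair of niche factors (both axes list genes), from blue (-1) to red (1). Cxcl12 is red against Lepr and Esm1 (0.75 and 0.74), Il7, Ebf3, Foxc1 and Nes form a red block at the lower right, and Angpt1 is blue against Foxc1 and Nes.

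**Figure D5:**
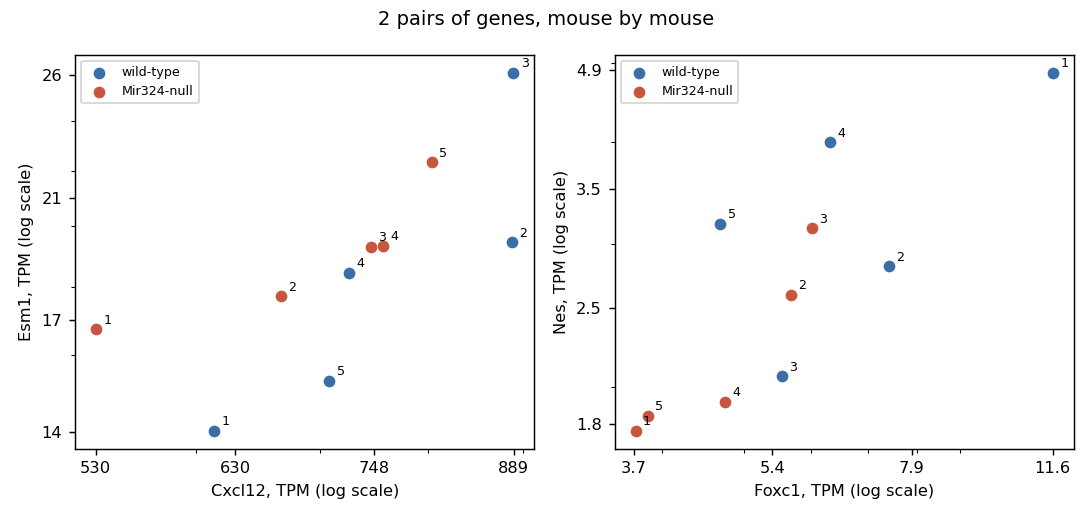
Mouse-by-mouse TPM of Esm1 against Cxcl12 (left) and Nes against Foxc1 (right), both axes logarithmic, wild-type in blue and Mir324-null in red with replicate numbers. Mice with more of one gene mostly have more of the other in both panels, and wild-type replicate 1 is the highest mouse on the right and has the lowest Esm1 on the left.

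The genes whose profile over the 10 libraries was most like that of Cxcl12 were sought among the 10333 genes averaging 5 TPM or more, as a description with no test. They were Chrdl1 (r = 0.93), Lpl (r = 0.92), Efemp1 (r = 0.85), Igkv8-21 (r = 0.85) and Prdx1 (r = 0.83). Chrdl1, a BMP antagonist, and Lpl, lipoprotein lipase, are also on the list of other marrow stroma genes. For Lepr they were Pla2g7 (r = 0.86), mt-Nd5 (r = 0.86), Agt (r = 0.85), Gm20498 (r = 0.84) and Rsph3a (r = 0.84), of which Agt, angiotensinogen, is on the same list. For Kitl they were Hdac8 (r = 0.92), Stt3a (r = 0.84), Faim (r = 0.83), Gm15793 (r = 0.81) and Utp4 (r = 0.79).

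No receptor or partner of the niche factors passed the test either. Of 10 listed, 9 passed the TPM filter, and 0 had an adjusted or an unadjusted p under 0.05 in limma. Cxcr4, the receptor of CXCL12, averaged 154 ± 33.9 and 165 ± 31.5 TPM in the wild-type and null groups (SD, n = 5, change 0.10). Ackr3, the scavenging receptor of CXCL12, averaged 22.2 ± 11.2 and 16.4 ± 6.57 TPM (SD, n = 5, change -0.38), where wild-type replicate 1 had 40.3 TPM and the change without it was -0.14. Without that mouse the change of Cxcr4 was 0.014. Kit, the receptor of KIT ligand, averaged 13.5 ± 3.10 and 14.3 ± 3.96 TPM (SD, n = 5, change 0.061, or 0.16 without wild-type replicate 1). The interleukin 7 receptor chains Il7r and Il2rg averaged 10.6 and 27.5 TPM in controls, against 8.65 and 29.1 TPM without Mir324, with changes of -0.30 and 0.062 (-0.25 and 0.074 without wild-type replicate 1).

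The angiopoietin receptor Tek averaged 5.14 and 4.43 TPM (change -0.21) and ranged from 4.80 to 5.41 TPM in wild-type and from 2.91 to 6.12 TPM in null mice. The estimate was -0.20 for its relative Tie1 and -0.46 for Angpt2, the context-dependent antagonist of angiopoietin 1, with means of 4.08 and 2.68 TPM. Without wild-type replicate 1, Tek was at -0.21, Tie1 at -0.15 and Angpt2 at -0.29. Leptin itself (Lep) was below the filter, at 0 to 0.333 TPM over the 10 mice. Socs3, a target of leptin receptor signalling, averaged 14.5 ± 11.4 and 9.02 ± 3.53 TPM (SD, n = 5, change -0.47), where wild-type replicate 1 had 34.6 TPM and the change without it was -0.11.

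Other genes of Lepr-expressing stroma were lower more often than higher in null mice, without passing adjustment. Of 22 listed beside the niche factors, 21 passed the filter, and Tcf21 was listed at 0 throughout. Among the 21, 0 had an adjusted p under 0.05 in limma. At an unadjusted p under 0.05, 6 were lower and 0 higher, against 7.3% and 4.28% of all genes (11.6% in either direction). The genotypes did not overlap for 0 of the 21, against 1.94% of all genes. Their median change was -0.27 against -0.045 over all genes, with 18 estimates below 0, where 60.0% of all genes had one below 0. After median ratio scaling, 16 estimates were below 0 and 4 genes were lower at an unadjusted p under 0.05, against 49.3% and 6.42% of all genes. Without wild-type replicate 1, 20 estimates were below 0 and 5 genes were lower, where the median change over all genes was -0.016. The summed level was 1599 to 2081 TPM in wild-type and 1505 to 1760 TPM in null mice.

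The 3 with the smallest p were Cxcl14, a chemokine, Grem1, a BMP antagonist, and Cdh11, a mesenchymal cadherin. Cxcl14 averaged 93.1 ± 17.9 and 67.1 ± 6.74 TPM (SD, n = 5, change -0.45), Grem1 11.4 ± 3.83 and 6.83 ± 1.40 TPM (SD, n = 5, change -0.63) and Cdh11 49.4 ± 10.4 and 34.0 ± 7.51 TPM (SD, n = 5, change -0.53). Vcam1, the adhesion molecule of the niche, averaged 114 and 117 TPM. Adipoq, which most adult Lepr-expressing cells transcribe, averaged 76.7 and 59.9 TPM, and Hp, haptoglobin, 542 and 548 TPM.

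Marker lists of other cell types are given beside these values, and their part in the results above was not tested. The counts of their genes at an unadjusted p under 0.05 in limma stand against 7.3% of all genes lower and 4.28% higher in null mice, and 0 genes of any list had an adjusted p under 0.05. Osteoblast and osteocyte genes summed to 5407 to 12907 TPM in wild-type and 3081 to 6146 TPM in null mice. Of these 10, led by Phex, Bglap2 and Bglap, 9 were lower at an unadjusted p under 0.05, and 5 without wild-type replicate 1, null replicate 4 or null replicate 5. Adipocyte genes summed to 456 to 734 and 300 to 580 TPM, with 6 of 7 lower (5 without wild-type replicate 1), led by Fabp4, Car3 and Cidec. Adipoq and Lpl stand on both this list and that of the stroma. Chondrocyte genes, led by Acan, Hapln1 and Sox9, were lower in 4 of 7, which became 3 without wild-type replicate 1, 1 when wild-type replicate 4 or null replicate 1 was left out and 2 without null replicate 5. Pericyte and smooth muscle genes, which include cells that express Nes, summed to 59.1 to 105 and 39.5 to 75.3 TPM, with 3 of 8 lower (Rgs5, Notch3 and Mcam), a count that was also 3 without wild-type replicate 1.

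Endothelial genes summed to 180 to 262 and 174 to 220 TPM, with 4 of 13 lower, led by Emcn, Apln and Ramp3, against 7.3% of all genes, and 3 without wild-type replicate 1. B lineage genes, whose cells depend on interleukin 7, summed to 520 to 635 and 283 to 574 TPM. They were lower in 5 of 10, led by Vpreb3, Cd79b and Cd79a. This became 3 without wild-type replicate 1, 2 without wild-type replicate 3 or null replicate 1 or 4, 8 without null replicate 3, and 1 after rescaling without the haemoglobin genes. Erythroid genes, led by Slc4a1, Alas2 and Hba-a1, were higher in 4 of 7, against 4.28% of all genes, which became 2 without wild-type replicate 1 and 1 when wild-type replicate 5, null replicate 4 or null replicate 5 was left out.

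Neutrophil genes (Camp, S100a9 and S100a8 first) and fibroblast genes (Dpp4, Clec3b and Dpt first) had 0 of 7 at an unadjusted p under 0.05. The fibroblast count was 1 without wild-type replicate 1, null replicate 3 or null replicate 4, and 2 without wild-type replicate 4. Of the skeletal muscle list, only Tnnt3 passed the filter, and it did not pass the test.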

How the data were processed

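Transcript abundance was deposited by the authors as 1 table of TPM values for 116912 mouse Ensembl transcripts and 10 libraries. Per the submitters' processing notes, kallisto made the estimates. These notes also name DESeq2 and the human build GRCh38, while the identifiers are mouse, so the index is not given in the sources used here. Each column summed to 1000000 TPM. TPM carries no depth, so no counting interval was computed.

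Identifiers without versions were matched to GENCODE M21 (GRCm38), which covered 115440 transcripts. The other 1472 held 0.275% to 0.356% of a library. TPM was summed per gene, genes averaging 1 TPM or more were kept, and log2(TPM + 1) was fitted in limma 3.58.1 (R 4.3.3; lmFit, eBayes with trend), two-sided, with Benjamini-Hochberg adjustment over 13841 genes at 0.05. Fold changes on this scale understate those of low genes. Single genes and transcript shares (transcripts of at least 10% of a gene above 1 TPM in every library) had two-sided exact permutation tests, whose smallest p is 0.00794. Correlations used 100000 permutations. Replicates were separate mice. Python 3.11.15, numpy 2.4.6, pandas 2.3.3, scipy 1.17.1 and matplotlib 3.10.9 were used, and the limma step was tested on simulated data. Transcript versions in the table are mostly newer than in M21, so printed sequences are those of M21.

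Named singly were the 9 niche factors, their 10 partners, the 3 genes of smallest p in each other list and the 5 genes most like Cxcl12, Lepr and Kitl. Vcam1, Adipoq, Hp, Gzmk and genes named as below the filter or on more than 1 list were chosen after their values were seen. The niche factors and lists were chosen with earlier results of these data known. The results of 2 marker lists are not reported here. Alternatives covered pseudocount, filter, scaling, trend, replicate block, transcript choice and leaving out each mouse.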

Additional observations from a re-analysis of the deposited data

Results flagged for a closer look

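Among 132 groups of 5 mice examined (genes named above and transcript shares, in each genotype), 11 had a highest or lowest mouse set apart. It was separated from the nearest other by more than Dixon's 95% critical value. Chance gives about 1 in 20 for independent groups of normally distributed values. These groups were TPM without logarithm and shares bounded at 100%, and shares of 1 gene depend on each other. The count of 11 can thus not be set against that rate. Of the 9 niche factors none was flagged by its TPM. Their transcript shares were flagged in 4 groups. Kitl-202 was at 69.6% in Mir324-null replicate 1, where the nearest null mouse was at 96.4%. Angpt1-201 was at 98.4% in the same mouse, with 100% in the others. In Mir324-null replicate 5, Nes-201 was at 0% and Nes-203 at 95.4%, against 72.4% and 27.6% in the nearest null mouse.

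Wild-type replicate 1 was the highest wild-type mouse for Socs3 (34.6 TPM, next 11.9), Ramp3 (2.61 TPM, next 1.61), Sox9 (19.8 TPM, next 9.42) and Clec3b (15.3 TPM, next 4.57). Mir324-null replicate 3 was the highest null mouse for Cidec (12.8 TPM, next 3.76) and Apln (1.70 TPM, next 0.815). Mir324-null replicate 1 was the lowest for Hapln1 (9.03 TPM, next 12.9).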

How the results depend on the processing

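Over 187 combinations of a niche factor and an alternative, 184 kept the direction of the estimate and 0 passed adjustment, with adjusted p in limma between 0.250 and 0.998. The 3 that turned were those of Esm1, whose change ranged from -0.034 to 0.18 when single mice were left out. The number of genes past the threshold over all genes was 0, and 0 to 1 without single mice (1 without wild-type replicate 3 or 4 or Mir324-null replicate 1). By overlap of the groups instead of an unadjusted p, 0 stromal list genes were called instead of 6. At an unadjusted p under 0.05, 4 niche factors (Lepr, Foxc1, Ebf3 and Nes) were lower without Mir324-null replicate 3, 3 (Il7, Foxc1 and Ebf3) without wild-type replicate 5 and 2 (Foxc1 and Nes) after median ratio scaling, after quantile normalization or without wild-type replicate 3. It was 1 with no trend or protein-coding transcripts only (Nes) and without Mir324-null replicate 4 (Il7). Except for median ratio scaling and quantile normalization, these counts were not set against the share of all genes in the same fit. They describe the fits and are not a result about the niche factors. After rescaling without haemoglobin genes Cxcl12 and Kitl were at -0.036 and -0.028. The cause was not tested.

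Differences in transcript share, in percentage points, turned in 15 of 100 fits without single mice and 0 passed adjustment. Their ranges were -1.01 to 0.077 for Cxcl12-202, -0.15 to 0.962 for Cxcl12-203, -6.74 to 5.53 for Ebf3-201, -3.20 to 6.61 for Ebf3-204, -6.91 to 0.688 for Kitl-202, -0.573 to 24.4 for Nes-201 and -23.4 to 0.475 for Nes-203.

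No pairing by replicate number was seen in the expression values. Whether same-numbered mice shared a litter or a batch is not given in the sources used here. The correlations of deviations between same-numbered mice ran from -0.144 to 0.0564, and none correlated best with its own number. With the replicate number as a block, 0 genes passed the threshold, 1168 had an unadjusted p under 0.05 instead of 1603, and 0 niche factors passed either.

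The table holds no read counts, so depth is unknown, and Il7 and Nes had no value under the filter of 5 TPM. With 5 mice a group the intervals are wide, and that of Foxc1 ran from -0.91 to 0.014.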
